A study of Mus musculus with 48 samples.

Results

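Transplanted mouse sarcomas that had received radiation together with an antibody against the checkpoint receptor PD-1 were compared with untreated transplanted sarcomas, 4 tumours against 4, across all genes. These 8 tumours were chosen by their group labels out of 48 sarcomas in the series, of which 16 were transplants (allografts) and 32 arose in place (primary tumours). Every allograft came from the same sarcoma cell line, 402230. For each, 50000 cells were injected in matrigel into the calf (gastrocnemius) muscle of syngeneic mice, and the strain is given as 129/SvJae. The line is of the p53/MCA sarcoma type. Primary tumours of that type are raised in p53FL/FL mice by an adenovirus carrying Cre, which removes the floxed p53 gene in the infected muscle, followed by the carcinogen MCA. Treated mice (20 Gy, anti-PD-1) received 200 ug of the mouse anti-PD-1 antibody muDX400 into the abdomen and then 20 Gy to the hind limb that bore the tumour. Control mice (0 Gy, isotype) received 200 ug of an isotype control antibody and no radiation, so the controls also carried an injected antibody. Treatment began at about 150 mm3, and tumours were taken 3 days later. The use of 1 cell line means that the 4 tumours of a group are separate grafts, not separate cancers. The age and sex of the allograft hosts are not given in the sources used here. A further 4 allografts each received 20 Gy with isotype antibody or anti-PD-1 without radiation, and they are used here to show where the combination differed from its parts.

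Radiation breaks DNA, and in cells that hold wild-type p53 this raises p53 targets such as the cell cycle inhibitor p21. DNA or RNA in the wrong compartment is read by sensors such as cGAS, RIG-I and MDA5, whose signals induce interferon beta. Type I interferon acts through a complex that holds STAT2 and IRF9 on a large set of antiviral genes, and interferon gamma from T cells and natural killer cells acts on antigen presentation, chemokines and PD-L1. PD-1 on T cells is bound by PD-L1, and the antibody blocks that contact.

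The 8 libraries held 36.8 to 41.9 M counts (M, 10 to the power 6) in treated tumours and 39.6 to 44.7 M in controls (2-sided exact permutation test, p = 0.114, where the smallest possible is 0.0286). The share of mitochondrial counts, the share of the ribosomal-repeat gene Gm42418 and the number of genes detected gave p = 0.857, 0.743 and 0.514 in the same exact permutation test, and the smallest of the 4 adjusted values was 0.457. At 4 against 4, 1 such measure alone could not pass 0.05 after this adjustment, so these values do not show that the libraries were alike. Treated replicate 2 stood apart from the other treated tumours. Its level of Xist, the RNA of the inactive X chromosome, was 586 CPM (counts per M of the library, scaled by TMM), against at most 99.9 in any other of the 8. Its level of the Y-linked gene Ddx3y was 10.8 CPM, against 33.4 to 51.0 in the other treated tumours and 51.8 to 68.0 in controls. It also had the lowest summed level of the mitosis list, at 564 CPM, and the highest of the macrophage list, at 7396 CPM. Xist exceeded 10 CPM in treated replicates 1, 2 and 4 and in control replicate 2, so it was not balanced between the groups. The Y-linked genes Ddx3y and Kdm5d were lower in every treated tumour than in any control, Eif2s3y and Uty overlapped, and none was called. Skeletal muscle transcripts differed widely among tumours. The summed level of 17 skeletal muscle genes ran from 108.8 to 26038 CPM in controls and from 2375 to 17838 CPM in treated tumours, and 0 of these genes were called, reached an unadjusted p below 0.05 or passed DESeq2. The fibroblast-type collagen gene Col1a1 was high in all 8 tumours, at 891 CPM or more, while 7 epidermal genes summed to at most 9.55 CPM in any of them. These levels do not test the label of a mesenchymal tumour, because host and tumour transcripts are mixed. Trp53 was read at 39.1, 43.9, 39.5 and 46.6 CPM in treated replicates 1 to 4 and at 26.0, 28.6, 38.5 and 30.04 CPM in the controls (adjusted p = 0.120). A count over the whole gene cannot show whether its floxed part is missing, nor tell host from tumour transcripts.

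The combination changed 1714 of 17746 genes tested, which is 9.66% (edgeR quasi-likelihood test, Benjamini-Hochberg adjusted p below 0.05). Of these, 1318 were higher in treated tumours (7.43% of genes tested) and 396 were lower (2.23%). The median log2 fold change was 1.37 among genes called higher and -0.86 among genes called lower, against -0.04 over all genes tested. A change of more than 2-fold was reached by 1083 called genes (6.1% of genes tested), 937 higher and 146 lower. In 1201 of the 1318 genes called higher, every treated tumour lay above every control, and in 344 of the 396 called lower every treated tumour lay below. Over all genes tested, such separation occurred in 8.85% upwards and 4.86% downwards. Protein-coding genes made up 1516 of the calls. The count fell to 919, 1050 and 1030 without control replicate 1, 2 or 4, and it was 1075 when the 8 tumours were fitted alone and 851 when all 48 sarcomas shared 1 estimate of the spread. With Xist above 10 CPM as a covariate it was 1449. The balance moved as well: higher genes were 76.9% of calls here, 93.7% with all 48 sarcomas, 88.8% with the 8 alone and 59.9% without treated replicate 4.

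**Figure D1:**
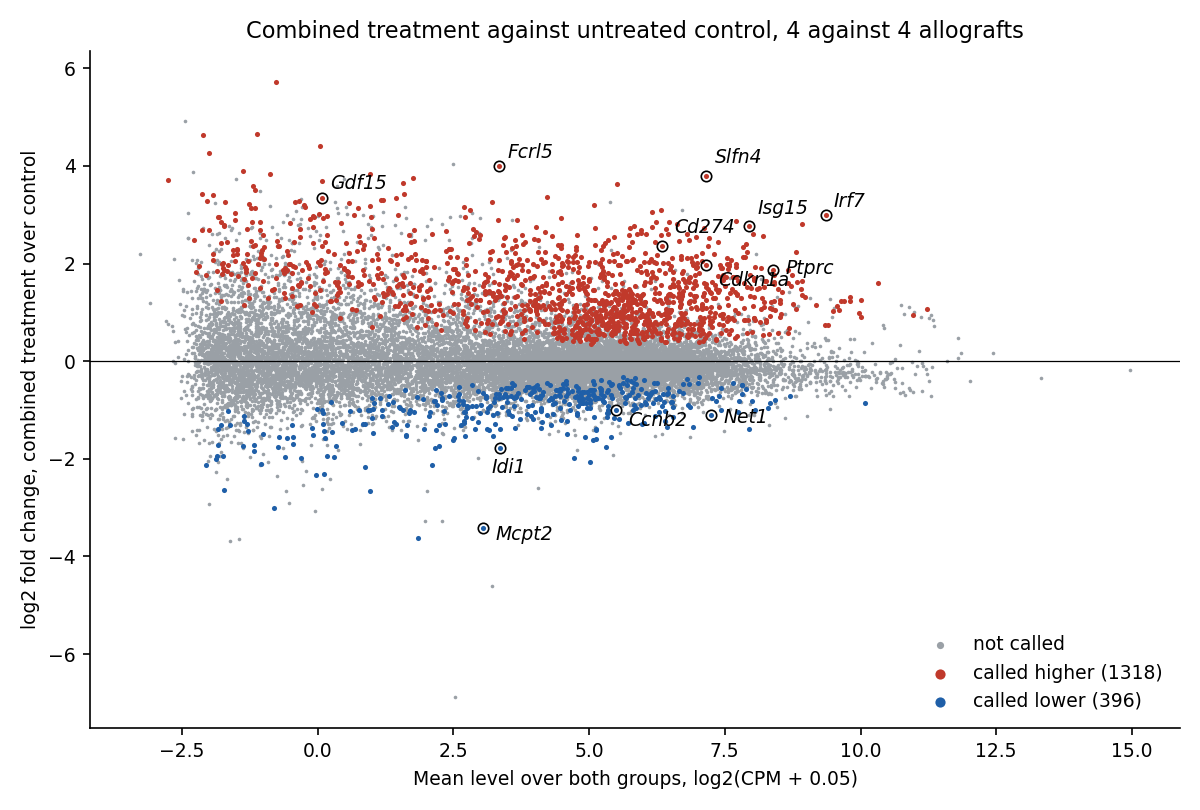
Each point is 1 of 17746 genes. The x axis is the mean level over both groups as log2(CPM + 0.05), and the y axis is the log2 fold change of 4 treated over 4 control allografts. The 1318 genes called higher (red) reach larger changes than the 396 called lower (blue), with Slfn4 at 3.80 and Mcpt2 at -3.41 among the labelled genes.

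Genes of the type I interferon response were higher throughout. All 28 listed genes were tested and all 28 were called higher, with a median log2 fold change of 2.49 and no overlap between treated and control tumours in any of them. The smallest adjusted p of all genes belonged to Slfn4, a Schlafen family gene that interferon induces in myeloid cells (chr11:83175186-83190216, plus strand, GRCm38). Its level was 223, 212, 413 and 220.4 CPM in treated replicates 1 to 4 and 20.8, 16.2, 14.6 and 25.1 CPM in control replicates 1 to 4. Treated replicate 3 was the highest and the groups did not overlap, for a log2 fold change of 3.80 ± 0.33 (SE), adjusted p = 0.000118. Herc6, a ligase that joins ISG15 to proteins in mice, stood at 58.5, 44.0, 48.9 and 54.4 CPM in treated tumours and at 13.3, 12.3, 14.6 and 9.84 CPM in controls. Both groups were narrow and far apart, with a log2 fold change of 2.04 ± 0.19 (SE), adjusted p = 0.000171. Isg15 itself, a ubiquitin-like modifier, varied more among treated tumours, at 819, 173, 492 and 242 CPM against 59.7, 68.5, 72.1 and 52.9 CPM in controls. Treated replicate 1 was the highest and replicate 2 the lowest, yet all 4 exceeded the controls (2.77 ± 0.44 (SE), adjusted p = 0.00190). Oas2, which makes the second messenger that activates RNase L, was nearly constant among treated tumours at 87.5, 87.9, 90.6 and 87.9 CPM and lay at 15.2, 14.4, 22.2 and 18.0 CPM in controls (2.34 ± 0.29 (SE), adjusted p = 0.000588). For Ifit1bl1, a member of the IFIT family of antiviral RNA-binding proteins, the means were 84.4 ± 36.6 CPM in treated tumours and 6.84 ± 1.74 CPM in controls (SD, n = 4), a log2 fold change of 3.62 ± 0.40 (SE). The other members ranged from 1.72 for Slfn8 to 3.06 for Rsad2, the antiviral enzyme viperin, with the IFIT genes Ifit1, Ifit2 and Ifit3 at 2.54, 2.44 and 2.88 and the GTPases Mx1 and Mx2 at 2.61 and 2.28. All 28 were called in every alternative setting tried. Slfn, Ifit, Gbp and H2 genes have close paralogs that can share reads, so the division of counts within these families is uncertain.

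The summed level of the 28 genes was 8273, 3620.4, 6327 and 5019 CPM in treated replicates 1 to 4 and 1019, 1124, 1609 and 856 CPM in controls. The lowest treated tumour, replicate 2, was more than 2 times the highest control.

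**Figure D2:**
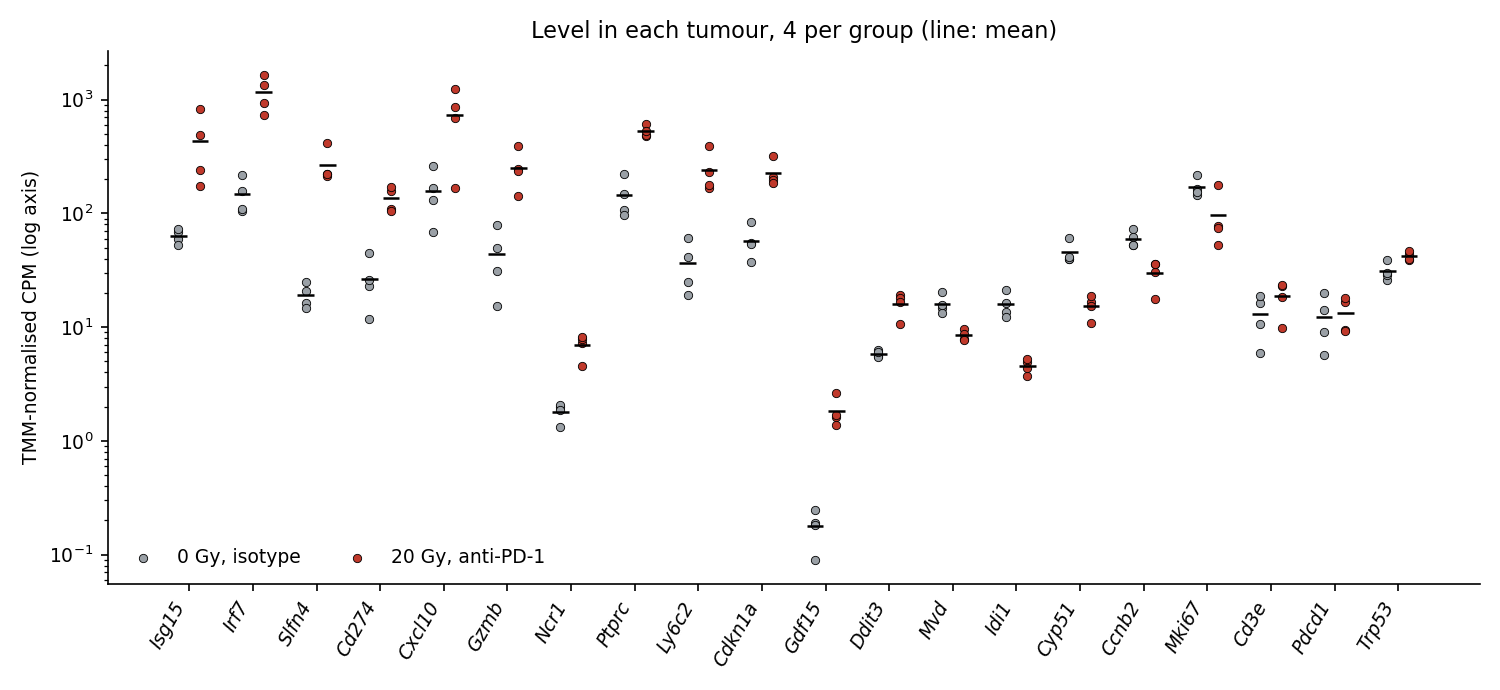
Points are single tumours, grey for 0 Gy with isotype and red for 20 Gy with anti-PD-1, 4 per group, with the mean as a line. The y axis is CPM after TMM scaling, on a log axis. Slfn4, Irf7 and Isg15 separate fully upwards and Mvd, Idi1, Cyp51 and Ccnb2 separate fully downwards, while Mki67, Cd3e and Pdcd1 overlap.

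The ligands themselves were low. Ifnb1, which encodes interferon beta, was read at 1.56, 0.283, 1.03 and 0.219 CPM in treated tumours, with replicates 1 and 3 well above replicates 2 and 4, and at 0.143, 0.135, 0.113 and 0.113 CPM in controls (2.59 ± 0.72 (SE), adjusted p = 0.0323). That call was lost in 10 of the 16 alternatives that could be fitted, with adjusted p up to 0.115. Ifng, which encodes interferon gamma, was at 3.30, 2.05, 5.24 and 3.96 CPM and 1.16, 0.834, 2.10 and 0.271 CPM, where the groups met at their edges, and was not called (adjusted p = 0.0652). Of 17 tested genes for interferon ligands, receptors and signalling, 10 were called higher and 0 lower, with a median of 0.91. Irf7, the transcription factor that amplifies type I interferon, led them (chr7:141262706-141266481, minus strand). Its level was 1643, 728, 1348 and 941 CPM in treated tumours and 105.8, 156, 217 and 109.7 CPM in controls, 1165 ± 409 CPM in treated tumours and 147 ± 51.7 CPM in controls (SD, n = 4). No treated tumour came near the controls, and the log2 fold change was 2.99 ± 0.36 (SE), adjusted p = 0.000588. Of the type I signalling complex, Stat2 rose by 1.57 ± 0.28 (SE) and Irf9 by 1.27 ± 0.16 (SE) on the log2 scale. Among receptor genes, Ifnar2 was called at 0.52, while Ifnar1, Ifngr1 and Ifngr2 were at 0.17, 0.41 and 0.27 and were not. Without control replicate 1 or 4 the count of this list was 6.

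Nucleic acid sensors rose nearly as a block. Of 22 tested genes, 19 were called higher and 0 lower, with a median of 1.38. Ikbke, the kinase IKK epsilon that acts beside TBK1 below the sensors, was at 74.3, 86.1, 91.6 and 88.6 CPM in treated tumours and 32.5, 23.8, 33.6 and 27.2 CPM in controls. The groups were more than 2-fold apart at their closest, and the log2 fold change was 1.54 ± 0.17 (SE), adjusted p = 0.000582. Of the AIM2-like receptors, which bind DNA, Ifi204 was at 203, 141.2, 206 and 166 CPM against 49.6, 57.4, 69.4 and 40.5 CPM (1.72 ± 0.21 (SE), adjusted p = 0.000588), and Mndal, Ifi207 and Aim2 changed by 1.33, 2.08 and 1.58. Zbp1, a sensor of Z-form nucleic acid that can start necroptosis, rose by 1.99 ± 0.31 (SE). The RNA sensors Ifih1 (MDA5) and Ddx58 (RIG-I) rose by 2.005 and 1.33, and the endosomal receptors Tlr9, Tlr7 and Tlr3 by 2.02, 1.79 and 1.43. The DNA sensor Cgas was called at 0.57. Its partner Tmem173 (STING) was at 0.56 and not called, and neither were Irf3 at 0.09 and Mavs at -0.12.

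Of 19 interferon gamma response genes, 16 were called higher, with a median of 1.82. Irgm1, an immunity-related GTPase, was at 496, 236, 478 and 608 CPM in treated tumours and 113.03, 104.8, 213 and 49.5 CPM in controls (1.92 ± 0.36 (SE), adjusted p = 0.00467). Replicate 2 was the lowest treated tumour and control replicate 3 the highest control, at 236 against 213 CPM. That ordering recurred in Gbp2, a guanylate-binding protein, at 683, 236, 591 and 882 CPM against 211, 204, 414 and 67.8 CPM, where the groups overlapped and the gene was not called (adjusted p = 0.0602). Gbp4 and Gbp9, whose annotated spans overlap, were at 2.08 and 1.69. Ido1, which degrades tryptophan, rose by 2.24. The count of this list was 8 without control replicate 1 or 2, 8 with all 48 sarcomas and 7 with the 8 tumours alone.

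The promoters of interferon-response genes were then read. RefSeq promoters (GRCm38.p6) were matched by symbol for 12330 tested genes. Only the first entry of each symbol was used, and the 250 bases before its start were searched on both strands. GAAA followed by any 2 bases and a second GAAA, the core of the interferon-stimulated response element, stood in 2.83% of these promoters. It stood in 10.48% of 964 promoters of genes called higher, in 2.422% of 289 promoters of genes called lower, in 10 of 21 from the type I list and in 10 of 12 from the interferon gamma list. TTCNNNGAA, the form of a gamma-activated site, stood in 5.985% of all promoters, in 9.336% of those called higher, in 6.92% of those called lower, in 3 of 21 from the type I list and in 7 of 12 from the interferon gamma list. The following 4 promoters belong to the 2 called members of each list with the smallest p among those that hold the core, so its presence in them was a condition of their choice. They run 5′ to 3′ on the gene's strand, and capitals mark the core on either strand, merged where 2 matches overlap.
Ifit1bl1 (chr19:34601969-34602218, minus strand): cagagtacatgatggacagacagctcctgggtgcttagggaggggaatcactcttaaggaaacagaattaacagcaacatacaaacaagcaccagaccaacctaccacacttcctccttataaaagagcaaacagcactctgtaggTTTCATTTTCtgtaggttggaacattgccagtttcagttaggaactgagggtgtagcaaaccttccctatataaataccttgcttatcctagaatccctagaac
Slfn8 (chr11:83020811-83021060, minus strand): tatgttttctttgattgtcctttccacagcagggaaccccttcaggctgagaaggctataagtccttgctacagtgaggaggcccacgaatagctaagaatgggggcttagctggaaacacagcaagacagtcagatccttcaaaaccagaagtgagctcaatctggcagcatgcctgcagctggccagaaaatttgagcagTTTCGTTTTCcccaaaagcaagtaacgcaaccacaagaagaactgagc
Irgm1 (chr11:48871421-48871670, minus strand): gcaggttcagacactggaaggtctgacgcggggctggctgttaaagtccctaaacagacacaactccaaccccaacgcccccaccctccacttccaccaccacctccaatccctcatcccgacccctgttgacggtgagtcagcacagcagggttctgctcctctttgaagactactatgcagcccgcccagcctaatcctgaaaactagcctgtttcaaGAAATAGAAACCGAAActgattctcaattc
Gbp3 (chr3:142559794-142560043, plus strand): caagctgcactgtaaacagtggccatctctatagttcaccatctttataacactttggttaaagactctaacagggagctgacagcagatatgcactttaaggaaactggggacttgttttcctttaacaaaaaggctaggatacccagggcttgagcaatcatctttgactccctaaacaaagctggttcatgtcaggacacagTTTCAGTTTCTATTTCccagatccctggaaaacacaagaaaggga
In Irgm1 and Gbp3, 2 overlapping copies lie close to the RefSeq start. That start can differ from the GENCODE start, and the Irgm1 window lies inside the gene's GENCODE span. The windows of Slfn4 and Herc6, which had the 2 smallest p values of all genes, hold no match to these letters, which says nothing of other sequence or other windows.

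Antigen presentation rose in part. Of 18 MHC class I genes, 9 were called higher, with a median of 0.92. H2-T23, a non-classical class I gene that encodes Qa-1, was at 591, 414, 607 and 496 CPM in treated tumours and 129.5, 178, 229.7 and 85.0 CPM in controls (1.76 ± 0.30 (SE), adjusted p = 0.00265). Psmb9, an immunoproteasome subunit, rose by 1.29 ± 0.26 (SE) and Tap1, a subunit of the peptide transporter, by 1.29. The classical gene H2-K1 overlapped between groups, at 3922, 2305, 2999 and 3738 CPM against 1404, 1664, 2396 and 748 CPM, and its call (adjusted p = 0.0316) was lost in 10 of 18 alternatives, with adjusted p up to 0.219. B2m, the light chain of class I, also overlapped and was not called (0.72 ± 0.24 (SE), adjusted p = 0.0730). The class I count was 4 without control replicate 1, control replicate 4 or treated replicate 3, and 14 without control replicate 3. It was 3 with the 8 tumours alone, 1 with all 48 sarcomas and 14 with DESeq2. Of 12 class II genes, which mark antigen-presenting cells, 3 were called higher, with a median of 0.99. That count was 1 without control replicate 1, 2 or 4 or treated replicate 2 or 3 and with all 48 sarcomas, 7 without control replicate 3 and 8 with DESeq2. The protease Ctss, which trims the class II invariant chain, rose by 1.59 ± 0.30 (SE), with 1885, 2216, 2147 and 1447 CPM in treated tumours and 551, 739, 775 and 486 CPM in controls. H2-Aa was separated between groups but not called (1.10 ± 0.36 (SE), adjusted p = 0.0676).

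Checkpoint genes rose in part, among both ligands and receptors. Cd274, which encodes the PD-1 ligand PD-L1, was at 109.7, 104.95, 157 and 171 CPM in treated tumours and 22.8, 26.0, 44.8 and 11.9 CPM in controls. The lowest treated tumour was more than 2 times the highest control, and the log2 fold change was 2.36 ± 0.41 (SE), adjusted p = 0.00300. The receptor that the antibody binds was not called. Pdcd1, which encodes PD-1, was at 9.34, 16.6, 17.9 and 9.21 CPM against 8.98, 20.1, 14.3 and 5.63 CPM, overlapping, with a log2 fold change of 0.12 ± 0.38 (SE), adjusted p = 0.892. In all, 6 of 12 ligand genes were called higher (median 1.22), among them the CD28 ligands Cd80 at 1.497 and Cd86 at 1.44, galectin 9 (Lgals9) at 1.33 and the OX40 ligand Tnfsf4 at 2.44. Of 15 genes for checkpoint receptors and regulatory T cells, 6 were called higher (median 0.81). These included Tnfrsf4 (OX40), at 5.53, 6.08, 7.90 and 6.21 CPM against 2.57, 3.45, 2.22 and 3.14 CPM (1.18 ± 0.25 (SE), adjusted p = 0.00854), Tnfrsf18 (GITR) at 1.26 and the cytokine Il10 at 2.06. Foxp3, the transcription factor of regulatory T cells, was separated but not called, at 2.61, 2.14, 2.49 and 6.62 CPM against 1.12, 1.40, 1.63 and 1.67 CPM (1.25 ± 0.42 (SE), adjusted p = 0.0726), and treated replicate 4 alone was well above the rest. The receptor count was 2 without control replicate 1 or 4 and 3 without treated replicate 3 or 4. It was 1 with all 48 sarcomas and 3 with the 8 tumours alone or with Xist as a covariate.

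The general leukocyte marker was higher. Ptprc, the pan-leukocyte marker CD45, was at 482, 605, 487 and 526 CPM in treated tumours and 106.2, 149, 223 and 96.3 CPM in controls. The lowest treated tumour was more than 2 times the highest control, for a log2 fold change of 1.87 ± 0.31 (SE), adjusted p = 0.00225. In bulk tissue, more cells of a type and more RNA per cell cannot be told apart, and the same holds for every level given here. The part of leukocyte content in the changes of single genes was not tested.

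Natural killer and cytotoxic genes were higher in part. Of 17 tested, 10 were called higher and 0 lower, with a median of 1.41. Gzmb, the killing protease granzyme B, was at 243, 142.3, 387 and 235 CPM in treated tumours and 31.0, 49.96, 79.2 and 15.3 CPM in controls (2.52 ± 0.49 (SE), adjusted p = 0.00518). Ncr1, which encodes the natural killer receptor NKp46, was at 7.19, 7.83, 8.17 and 4.57 CPM against 1.33, 2.01, 2.06 and 1.86 CPM, with no overlap (1.93 ± 0.34 (SE), adjusted p = 0.00329). Gzma, Klrb1c (NK1.1) and Eomes, a transcription factor of killer cells, rose by 2.54, 2.19 and 1.36. Perforin (Prf1) overlapped and was not called (1.06 ± 0.47 (SE), adjusted p = 0.182). The summed level of the list was 572, 511, 895 and 611 CPM in treated tumours and 136.6, 248, 273 and 74.9 CPM in controls. The count was 6 without control replicate 1 or 4, and 0 with all 48 sarcomas.

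T cell genes were not called in the fit of the 16 allografts. Of 18 genes of the T cell receptor complex and coreceptors, 0 passed the edgeR test (10 at an unadjusted p below 0.05) and 3 passed DESeq2, while 17 of the 18 had a positive log2 fold change and the median was 0.91. With edgeR, 3 were called with the first digit of the animal identifier as a covariate, 2 without treated replicate 1, and 1 without treated replicate 4, with Xist as a covariate or at a mean of at least 1 CPM. Cd3e, a chain of the receptor complex, was at 9.72, 22.9, 23.4 and 18.6 CPM in treated tumours and 10.6, 16.4, 18.8 and 5.95 CPM in controls, overlapping (0.53 ± 0.42 (SE), adjusted p = 0.484). Cd8a, of killer T cells, was at 16.4, 43.6, 44.6 and 18.8 CPM against 16.8, 20.7, 24.8 and 10.2 CPM (0.77 ± 0.40 (SE), adjusted p = 0.261), and Cd4, of helper T cells, at 8.26, 34.2, 16.3 and 17.2 CPM against 4.04, 9.26, 11.8 and 7.35 CPM (1.23 ± 0.55 (SE), adjusted p = 0.180). Treated replicates 2 and 3 held the 2 highest levels of Cd3e and Cd8a, and treated replicates 1 and 4 lay at or within the range of controls. B cell genes gave 1 call of 12 tested, Cd22 at 1.98 ± 0.51 (SE), which was lost in 4 of 18 alternatives. The count was 3 without control replicate 3 and 2 with DESeq2.

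Myeloid genes rose unevenly. Of 19 monocyte and neutrophil genes, 7 were called higher, with a median of 1.502. Ly6c2, a marker of inflammatory monocytes, was at 168, 176, 394 and 230.3 CPM in treated tumours and 25.1, 41.1, 60.7 and 19.0 CPM in controls (2.73 ± 0.56 (SE), adjusted p = 0.00692). The formyl peptide receptors Fpr1 and Fpr2, which sense bacterial and mitochondrial peptides, rose by 3.36 ± 0.56 (SE) and 2.58 ± 0.42 (SE), and Fcgr4, an activating antibody receptor, by 1.99 ± 0.38 (SE). Of the 19 genes, 17 had a positive log2 fold change and 12 were not called. Among those not called were the neutrophil genes S100a8, S100a9 and Ly6g. S100a8 was at 37.9, 24.5, 40.0 and 12.0003 CPM against 10.01, 13.9, 46.7 and 16.6 CPM (0.39 ± 1.004 (SE), adjusted p = 0.859), S100a9 at -0.06 and Ly6g at -0.08. The list mixes both cell types, so these genes do not stand for all neutrophil markers. Of 18 macrophage genes, 6 were called higher, with a median of 0.89. Fcgr1, the high-affinity antibody receptor CD64, was at 326, 331, 398 and 271 CPM against 76.7, 85.7, 117.6 and 69.2 CPM (1.92 ± 0.26 (SE), adjusted p = 0.000908). Adgre1 (F4/80) was at 234, 569, 240.0 and 254 CPM against 78.1, 93.7, 164 and 77.3 CPM, with treated replicate 2 far above the others (1.65 ± 0.42 (SE), adjusted p = 0.0201), and the call was lost without that tumour, without control replicate 1, 2 or 4, and with Xist as a covariate. The macrophage count was 2 without control replicate 1 or 2 and 3 without treated replicate 2 or 3, and it was also 3 with Xist as a covariate. Of 15 dendritic cell genes, 4 were called higher (median 1.13): Irf8 at 1.48, Batf3 at 1.61, Itgax at 1.80 and Ccl22 at 1.87. With all 48 sarcomas that count was 2, and Batf3 was among the calls lost. Flt3, the growth factor receptor of dendritic cells, was not called (0.61 ± 0.49 (SE), adjusted p = 0.479). The log2 fold change was negative for 3 of the 15, and 1 gene had every treated tumour below every control. Summed over the list, the groups overlapped, at 537 to 716 CPM in treated tumours and 456 to 572 CPM in controls.

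**Figure D3:**
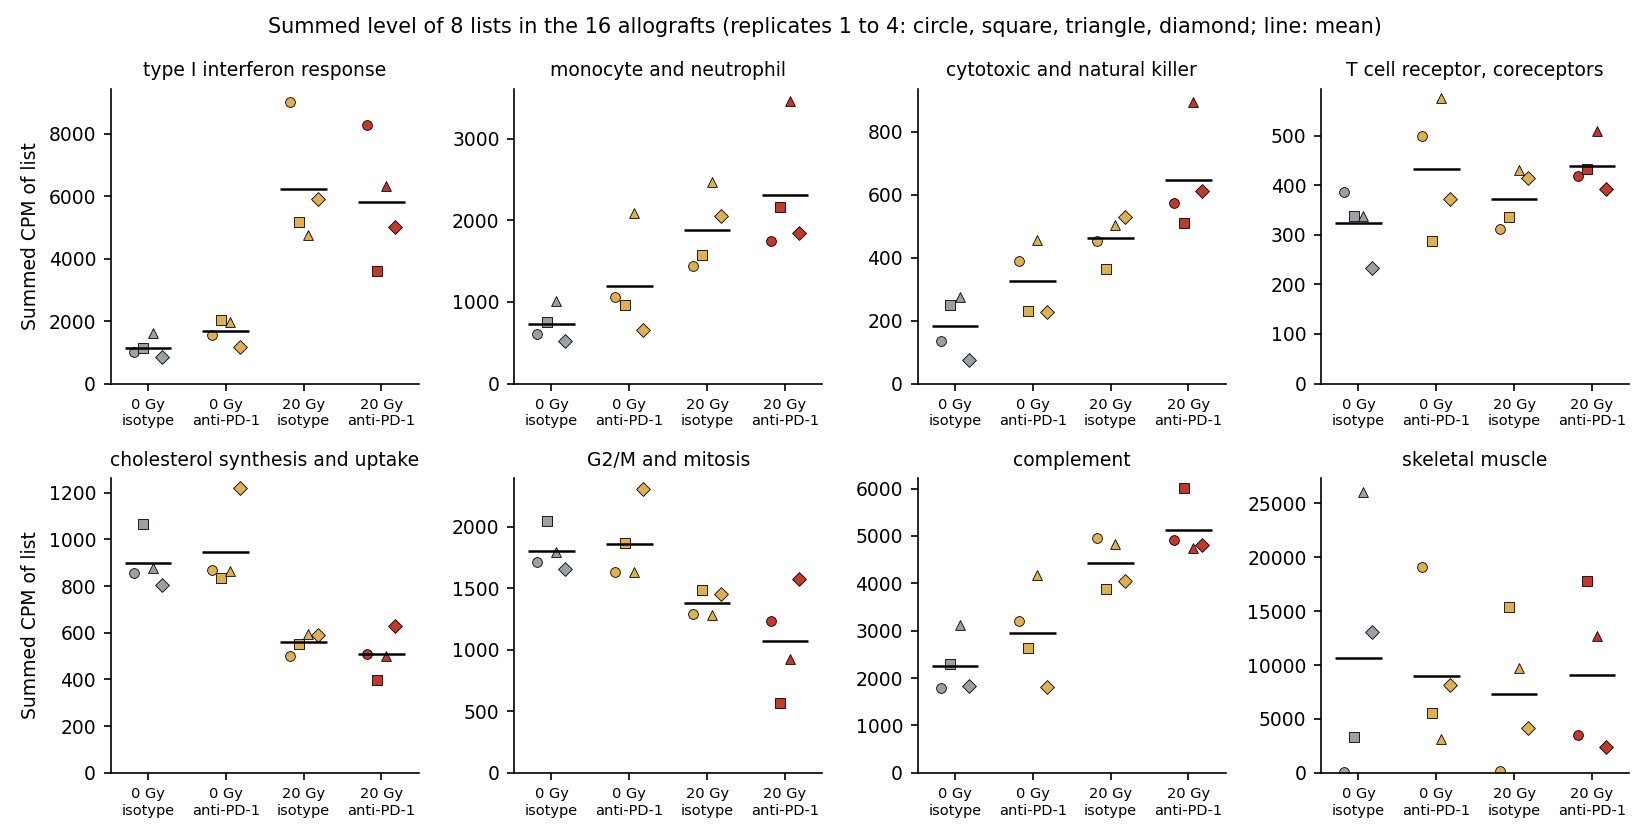
Each panel gives the summed CPM of 1 gene list in the 16 allografts, 4 per group, with a symbol for each replicate number and the mean as a line; the y axes start at 0. Type I interferon sums were 3620 to 8273 CPM in the combined group and 4756 to 9033 CPM in the 20 Gy isotype group, against 856 to 1609 CPM in controls. Skeletal muscle sums differ more within groups than between them.

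Chemokines and their receptors followed. Cxcl11, which attracts T cells and natural killer cells through CXCR3, was at 245, 44.6, 199 and 86.2 CPM in treated tumours and 19.8, 16.2, 22.1 and 9.39 CPM in controls (3.09 ± 0.59 (SE), adjusted p = 0.00476). Cxcl10, a ligand of the same receptor, overlapped by 1 treated tumour, at 1247, 166, 688 and 853 CPM against 166, 129.8, 263 and 68.8 CPM (2.23 ± 0.49 (SE), adjusted p = 0.00972). Cxcl9, the third, was not called, at 1023, 439.9, 1122 and 1348 CPM against 404, 401, 697 and 124.1 CPM (adjusted p = 0.103). Treated replicate 2 was the lowest treated tumour for all 3. Among T cell chemokines and receptors, 6 of 8 were called higher (median 1.33), including Ccl5 at 2.45 and the receptor Cxcr3 at 1.304. Of 17 myeloid chemokine genes, 6 were called higher (median 1.61). Ccl7, a monocyte attractant, was at 596, 197, 471 and 232 CPM against 79.2, 86.9, 81.8 and 93.7 CPM (2.13 ± 0.49 (SE), adjusted p = 0.0125), and its receptor Ccr2 rose by 1.32 ± 0.31 (SE). The related Ccl2 overlapped, and its call (1.64 ± 0.47 (SE), adjusted p = 0.0365) was lost in 10 of 18 alternatives. The myeloid count was 2 without control replicate 1 and 3 without control replicate 2 or 4 or treated replicate 1 or 3, and it was 3 with all 48 sarcomas and 10 with DESeq2.

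Inflammatory cytokine and cell death genes rose in part. Of 17 genes of the interleukin 1, TNF and interleukin 6 families, 8 were called higher (median 1.27). Casp1, the protease that activates interleukin 1 beta, was at 41.9, 66.3, 68.1 and 44.1 CPM in treated tumours and 12.95, 11.8, 19.5 and 9.95 CPM in controls (2.02 ± 0.30 (SE), adjusted p = 0.00136). Its platform Nlrp3 rose by 1.47 ± 0.26 (SE), the antagonist Il1rn by 1.95 ± 0.40 (SE) and Tnf by 2.07 ± 0.53 (SE). Il1b was separated between groups without passing the test (1.60 ± 0.50 (SE), adjusted p = 0.0561). Casp4, which detects bacterial lipopolysaccharide in the cytosol, rose by 1.99 ± 0.25 (SE), and Gsdmd, the pore protein cut by both caspases, by 0.86 ± 0.14 (SE). The latter belong to a cell death list with 7 of 16 called higher (median 0.51), which also holds Tnfsf10 (TRAIL) at 1.72 and the necroptosis effector Mlkl at 0.87. Of 12 NF-κB targets, 7 were called higher (median 0.86), with the inhibitor Nfkbia at 238, 184, 196 and 207 CPM against 108.01, 110.1, 119.02 and 104.97 CPM (0.90 ± 0.12 (SE), adjusted p = 0.000819) and the adhesion molecule Icam1 at 1.63 ± 0.23 (SE). The cytokine count was 4 without control replicate 1 and 5 without control replicate 2 or 4 or treated replicate 3. In the complement list, 9 of 15 were called higher (median 1.15), including the receptor C3ar1 at 1.97 ± 0.34 (SE), Cfb at 2.43 and the 3 chains of C1q, C1qa, C1qb and C1qc, at 1.23, 1.13 and 1.15. C3 itself was not called (1.12 ± 0.57 (SE), adjusted p = 0.246). That count was 3 without control replicate 1, 4 without control replicate 4 and 3 with all 48 sarcomas.

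Targets of p53 rose in part. Of 25 tested, 9 were called higher and 0 lower, with a median of 0.60. The log2 fold change was negative for 4 of the 25, and 2 genes had every treated tumour below every control. Cdkn1a, which encodes p21 (chr17:29090976-29100727, plus strand), was at 209, 318, 195 and 184 CPM in treated tumours and 37.7, 55.2, 84.0 and 53.5 CPM in controls. All treated tumours were more than 2 times the highest control, and the log2 fold change was 1.98 ± 0.26 (SE), adjusted p = 0.000819. Gdf15, a stress-induced cytokine, was low but well separated, at 1.61, 2.64, 1.70 and 1.37 CPM against 0.190, 0.248, 0.181 and 0.0905 CPM (3.35 ± 0.40 (SE), adjusted p = 0.000588). Bbc3 (PUMA), which triggers apoptosis, rose by 1.13 ± 0.17 (SE), and Mdm2, the ligase that degrades p53, by 0.60 ± 0.13 (SE). Fas, Sesn2, Btg2, Pmaip1 and Bax were called at 1.14, 1.10, 1.08, 1.04 and 0.79. Ccng1 and Zmat3, which p53 also controls, were at 0.81 and 0.46 and were not called. Treated replicate 2 had the highest level of Cdkn1a and Gdf15 and the highest summed level of the list, at 1952 CPM against 1057 to 1214 CPM in the other treated tumours and 690.0 to 962 CPM in controls. With all 48 sarcomas the count was 6. The stress gene Ddit3 (CHOP) rose by 1.46 ± 0.21 (SE), while the unfolded protein chaperone Hspa5 was at -0.18 and not called, as part of a list with 2 of 13 called higher (median 0.04). That count was 1 without any 1 of the 4 controls or without treated replicate 1 or 3, and without treated replicate 1 another member was called lower. It was also 1 with limma-voom, with the 8 tumours alone and with all 48 sarcomas.

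Mitosis genes fell in part, and S-phase genes were not called. All 25 genes of the G2/M list had negative log2 fold changes (median -0.76), and 10 were called lower. Ccnb2, a cyclin of mitotic entry, was at 36.1, 17.7, 30.6 and 35.9 CPM in treated tumours and 52.2, 72.9, 52.99 and 61.7 CPM in controls. The groups did not overlap, and the gene had a log2 fold change of -0.996 ± 0.19 (SE), adjusted p = 0.00539. Bub1, a kinase of the spindle checkpoint, was at 26.6, 13.03, 17.9 and 25.1 CPM against 36.2, 44.2, 34.4 and 34.5 CPM (-0.85 ± 0.19 (SE), adjusted p = 0.0113). Mki67, the proliferation antigen Ki-67, was at 77.0, 53.1, 74.5 and 178 CPM against 146, 164, 218 and 154 CPM, and treated replicate 4 lay inside the control range (-0.83 ± 0.34 (SE), adjusted p = 0.147). The same tumour had the highest treated level of Top2a (-0.53 ± 0.30 (SE), adjusted p = 0.297). Of 25 G1/S and replication genes, 0 were called with edgeR or DESeq2 and 1 reached an unadjusted p below 0.05, while 24 had a negative log2 fold change and the median was -0.38. None of 24 double-strand break repair genes were called with edgeR (12 at an unadjusted p below 0.05), and 2 were with DESeq2 (median -0.41). With edgeR, 6 repair genes were called lower without treated replicate 4, 3 without treated replicate 1 and 1 with the first digit of the animal identifier as a covariate or at a mean of at least 1 CPM. Without treated replicate 4, 2 replication genes were called lower. The mitosis count depended on single tumours. It was 3 without control replicate 1 or 2, 5 without control replicate 4 or treated replicate 2 or 3, and 22 without treated replicate 4. It was 4 without an expression filter, 5 with Xist as a covariate, 1 with the 8 tumours alone and 0 with all 48 sarcomas.

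Genes of cholesterol synthesis and uptake held more lower calls than any other of the 40 lists. Of 24 tested, 16 were called lower and 0 higher, with a median of -0.84. Idi1, the isomerase that makes the allylic building block of sterols (chr13:8885501-8892451, plus strand), was at 3.71, 4.90, 5.29 and 4.40 CPM in treated tumours and 13.5, 21.2, 12.3 and 16.3 CPM in controls. Every treated tumour was below the lowest control, and the log2 fold change was -1.79 ± 0.22 (SE), adjusted p = 0.000588. Cyp51, which demethylates lanosterol, was at 16.7, 10.9, 15.2 and 18.9 CPM against 39.8, 60.8, 39.6 and 41.6 CPM (-1.56 ± 0.22 (SE), adjusted p = 0.00100), with control replicate 2 the highest and treated replicate 2 the lowest. Upstream in the pathway, Hmgcs1, which makes HMG-CoA, was at -0.86 ± 0.18 (SE) and the decarboxylase Mvd at -0.92 ± 0.16 (SE). Fdps and Sqle were at -1.93 and -1.39. The transcription factor Srebf2, which drives these genes when sterols are scarce, was itself called lower at -0.94. The summed level of the list was 509, 397, 501 and 629 CPM in treated tumours and 854, 1064, 876 and 805 CPM in controls. Leaving out any 1 tumour gave 12 to 17 calls, and the fit of all 48 sarcomas gave 10. Of 8 genes of sterol export and oxysterols, 4 were called higher and 0 lower (median 1.43). Abcg1, a sterol exporter, was at 289, 276, 229.8 and 239 CPM against 45.5, 42.3, 104.8 and 32.5 CPM (2.20 ± 0.39 (SE), adjusted p = 0.00321). Ch25h, which makes 25-hydroxycholesterol and is induced by interferon, rose by 1.96, and Nr1h3 (LXR alpha), the sterol-activated transcription factor of this group, by 2.05 ± 0.44 (SE). Abca1, a second exporter, was separated but not called (0.75 ± 0.23 (SE), adjusted p = 0.0569).

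Both groups of lower genes were searched for the CCAAT box, the CHR letters TTTGAA and TTCGAA of mitosis promoters, and the sterol element in the form TCACNCCAC. CCAAT stood in 35.63% of all promoters, in 43.94% of genes called lower, in 15 of 16 cholesterol promoters and in 16 of 20 mitosis promoters. TTTGAA stood in 11.13% of all, in 11.76% of genes called lower and in 6 of 20 mitosis promoters, and also in 6 of 21 promoters of the type I interferon list and 5 of 12 of the interferon gamma list. TTCGAA stood in 1.768% and in 2 of 20, and the sterol element in 0.957% of all and in 1 of 16 cholesterol promoters. CCAAT was picked for display after these counts were seen, so the choice supports nothing. The 4 promoters below are those of the 2 called members of each list with the smallest p among those that hold it, with each copy on either strand in capitals (ATTGG is the copy on the other strand).
Idi1 (chr13:8885356-8885605, plus strand): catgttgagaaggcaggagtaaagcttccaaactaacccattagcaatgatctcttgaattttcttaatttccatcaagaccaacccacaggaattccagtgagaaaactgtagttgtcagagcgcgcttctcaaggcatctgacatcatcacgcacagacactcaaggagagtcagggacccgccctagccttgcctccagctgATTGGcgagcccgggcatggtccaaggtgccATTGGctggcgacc
Cyp51 (chr5:4104698-4104947, minus strand): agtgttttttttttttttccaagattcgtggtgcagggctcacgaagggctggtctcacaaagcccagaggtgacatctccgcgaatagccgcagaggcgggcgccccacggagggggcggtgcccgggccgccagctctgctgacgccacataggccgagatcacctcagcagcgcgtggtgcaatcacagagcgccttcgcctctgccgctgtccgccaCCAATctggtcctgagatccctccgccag
Ccnb2 (chr9:70421555-70421804, minus strand): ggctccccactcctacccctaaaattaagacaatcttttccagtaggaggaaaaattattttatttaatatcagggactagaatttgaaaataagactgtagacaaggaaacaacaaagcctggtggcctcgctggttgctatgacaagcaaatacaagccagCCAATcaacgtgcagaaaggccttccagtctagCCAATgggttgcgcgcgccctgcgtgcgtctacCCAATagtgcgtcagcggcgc
Bub1 (chr2:127831860-127832109, minus strand): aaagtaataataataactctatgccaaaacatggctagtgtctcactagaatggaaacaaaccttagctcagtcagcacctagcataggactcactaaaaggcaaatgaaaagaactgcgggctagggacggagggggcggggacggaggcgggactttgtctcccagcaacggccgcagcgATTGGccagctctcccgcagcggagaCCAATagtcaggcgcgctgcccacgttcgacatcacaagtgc
Ccnb2 holds 3 copies within the last 87 bases before its RefSeq start. The windows of Idi1 and Cyp51 reach into the GENCODE spans of these genes, and their marked copies lie inside those spans.

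**Figure D4:**
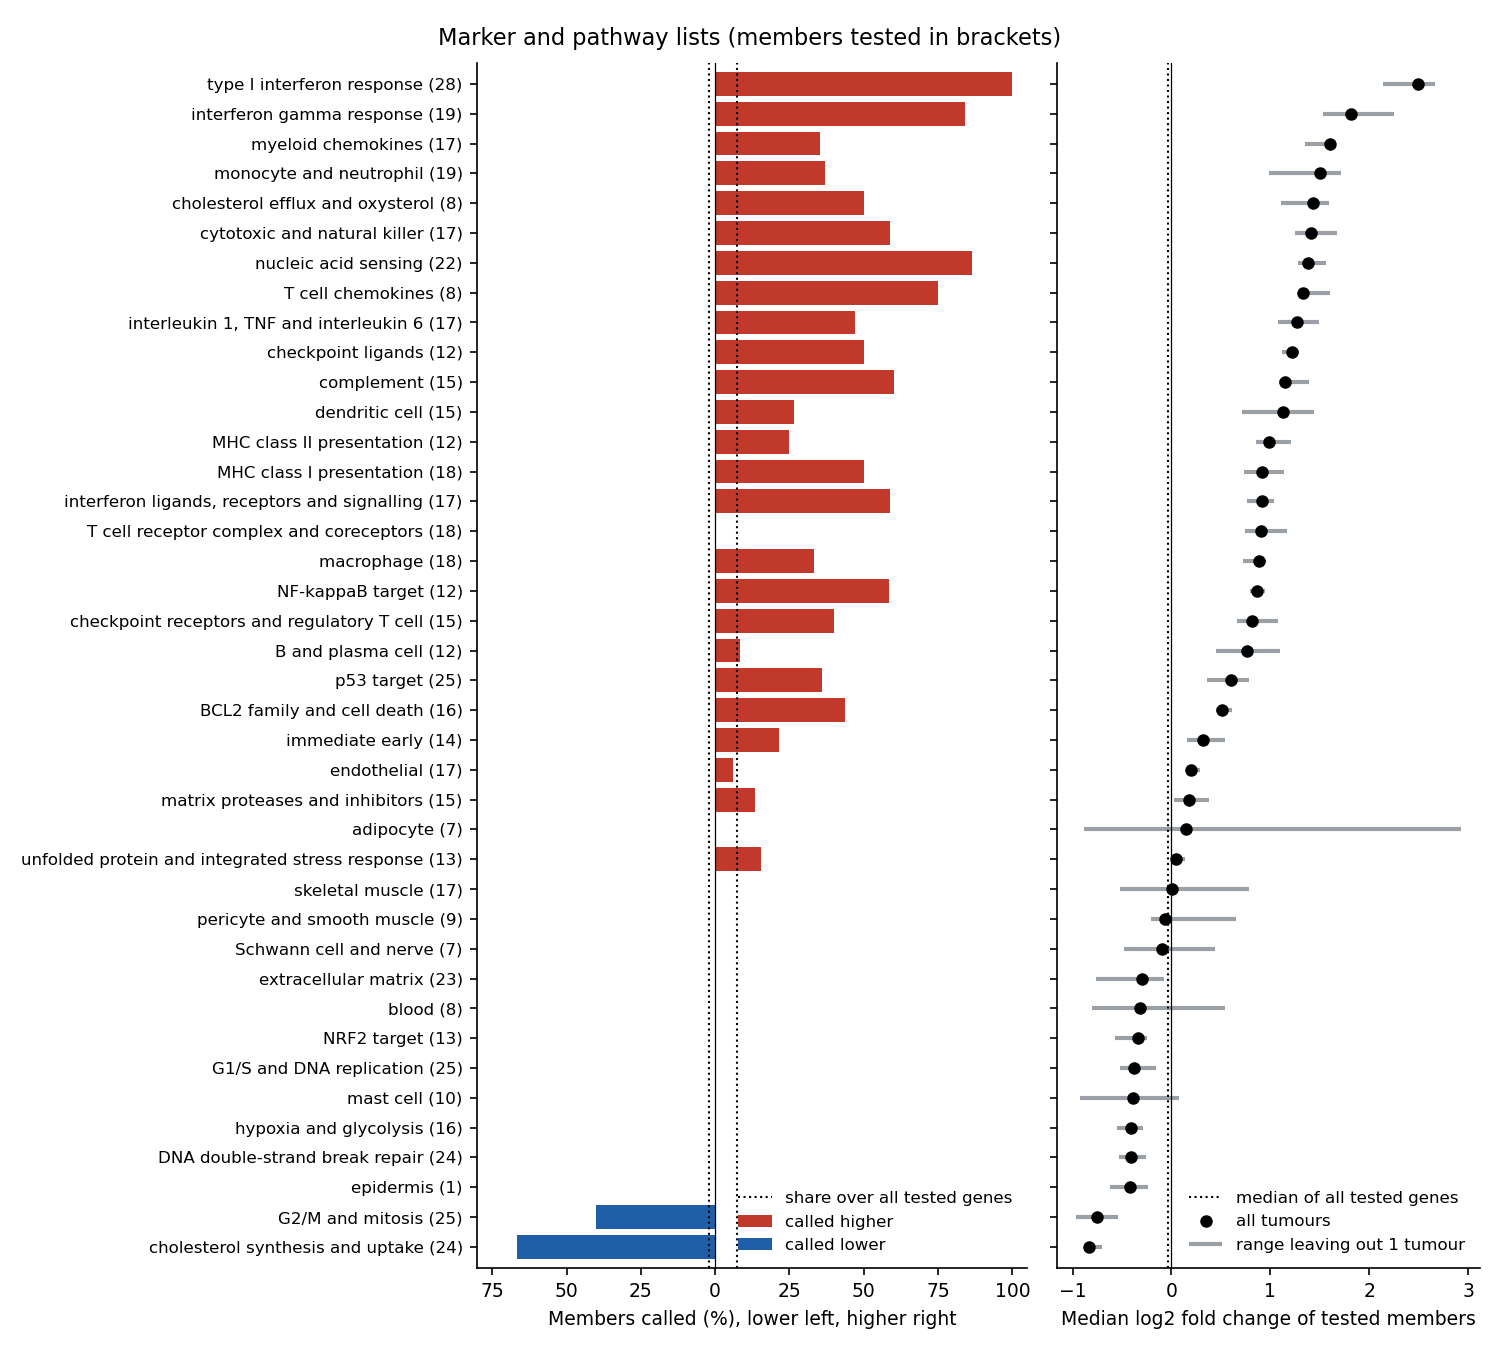
Rows are 40 gene lists with the number tested in brackets. The left panel gives the percentage of members called higher (red, rightwards) and lower (blue, leftwards), with dotted lines at 7.43% and 2.23% for all genes; the right panel gives the median log2 fold change with its range when 1 tumour is left out. Type I interferon (28 of 28 called higher) and cholesterol synthesis (16 of 24 called lower) are the outermost lists with many members.

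Few genes of stroma, vessels, hypoxia and the NRF2 response were called. Of 23 extracellular matrix genes, 0 were called with edgeR, 4 at an unadjusted p below 0.05, and 1 with DESeq2 (median -0.29). Without treated replicate 4, edgeR called 3 lower, and the median ran from -0.76 to -0.08 leaving out 1 tumour. Col1a1 was at 909.9, 1545, 891 and 5464 CPM in treated tumours, highest in replicate 4, and 2181, 1619.6, 3333 and 1948 CPM in controls. In the protease list, 2 of 15 were called higher (median 0.18), Mmp13 at 2.61 ± 0.79 (SE) and Plau at 1.34 ± 0.36 (SE), and these calls were lost in 10 and 9 of 18 alternatives. Of 17 endothelial genes, 1 was called, Kdr (VEGF receptor 2) at 0.92 ± 0.28 (SE), adjusted p = 0.0477, which was lost in 11 of 18. The marker Pecam1 was not called (0.65 ± 0.26 (SE), adjusted p = 0.133). Vegfa, the growth factor for vessels, was lower in every treated tumour, at 102.1, 29.7, 96.5 and 159 CPM against 368, 302, 177 and 200.4 CPM, but did not pass (-1.44 ± 0.48 (SE), adjusted p = 0.0718), and 0 of 16 hypoxia and glycolysis genes were called with edgeR, 5 at an unadjusted p below 0.05, and 1 with DESeq2 (median -0.41). None of 13 NRF2 targets were called with edgeR or with DESeq2, and 6 reached an unadjusted p below 0.05 (median -0.33). Without treated replicate 4, edgeR called 2 NRF2 targets and 1 hypoxia gene lower. It called 1 NRF2 target lower without treated replicate 1 and 1 higher without control replicate 3. Outside the lists, Net1, an activator of the GTPase RhoA, was at 76.0, 107.2, 119.8 and 83.4 CPM against 226, 234, 149.6 and 221 CPM (-1.10 ± 0.18 (SE), adjusted p = 0.00224), and Pnp, which breaks down purine nucleosides, at 54.6, 43.0, 57.2 and 43.3 CPM against 18.2, 19.0, 19.0 and 16.04 CPM (1.46 ± 0.16 (SE), adjusted p = 0.000582). Fcrl5, an Fc receptor-like gene of B cells, exceeded Slfn4 in fold change (3.996 ± 1.03 (SE), adjusted p = 0.0231). Its treated levels were 18.3, 30.1, 11.2 and 16.7 CPM and its control levels 0.404, 0.428, 3.75 and 0.181 CPM, and the call was lost in 6 of 18 alternatives.

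The combination was then set against each of its parts. Against 20 Gy with isotype antibody, 0 of 17746 genes were called with edgeR, and DESeq2 and limma-voom also called 0. An unadjusted p below 0.05 was reached by 682 genes, and the smallest adjusted p was 0.682. Against anti-PD-1 without radiation, 703 genes were called (3.96%), 556 higher (3.13%) and 147 lower (0.828%) in the combination. That count was 266 and 184 without replicate 2 or 4 of the antibody group, 435, 231 and 1275 without replicate 2, 3 or 4 of the combined group, and 1552 with DESeq2. With all 48 sarcomas it was 0.595% of genes tested. The difference between the combination and the sum of its parts on the log scale (the dose by antibody interaction) gave 0 calls with edgeR and 0 with DESeq2, with 269 genes at an unadjusted p below 0.05 and a smallest adjusted p of 0.864. A test that passes nothing does not show that the groups were alike. Each treatment was measured against the same 4 controls, so the values that follow are not independent.

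Type I interferon and sterol genes had similar values in both irradiated groups. The median of the type I list was 2.49 with the combination, 2.59 with 20 Gy and isotype, and 0.55 with anti-PD-1 alone. Against anti-PD-1 alone, 27 of its 28 members were called. The interferon gamma list had medians of 1.82, 1.54 and 0.96 in that order. Between the combination and anti-PD-1 alone, 0 of its 19 members were called. Irf7 was at 2.99, 3.12 and 0.65 in that order, and Slfn4 at 3.80, 3.09 and -0.11. For cholesterol synthesis the medians were -0.84, -0.70 and 0.03, and 13 of 24 members differed between the combination and anti-PD-1 alone. Idi1 was at -1.79, -1.99 and -0.11. Cdkn1a was at 1.98, 1.79 and 0.23, and Gdf15 at 3.35, 3.25 and 0.07. In the mitosis list the medians were -0.76, -0.39 and 0.04.

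For lymphoid lists, differences between treatments in the medians that follow were not tested. The T cell receptor list had a median of 0.91 with the combination, 0.11 with 20 Gy and isotype, and 0.89 with anti-PD-1 alone, and 0 of its 18 members were called in any of the 3 contrasts of the combination. Foxp3 was at 1.25, 0.24 and 1.34, and Cd8a at 0.77, 0.12 and 0.89. For checkpoint receptors the medians were 0.81, 0.24 and 0.83, and for B cell genes 0.77, -0.08 and 0.92. The cytotoxic list lay highest with the combination, at 1.41 against 0.80 and 0.77. Gzmb was at 2.52, 1.92 and 1.12, and its difference between the combination and 20 Gy with isotype was 0.60 ± 0.46 (SE), adjusted p = 0.682. Tnfrsf4 had the corresponding values 1.18, 0.18 and 0.73, with a difference from 20 Gy and isotype of 0.99 ± 0.25 (SE), adjusted p = 0.682.

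**Figure D5:**
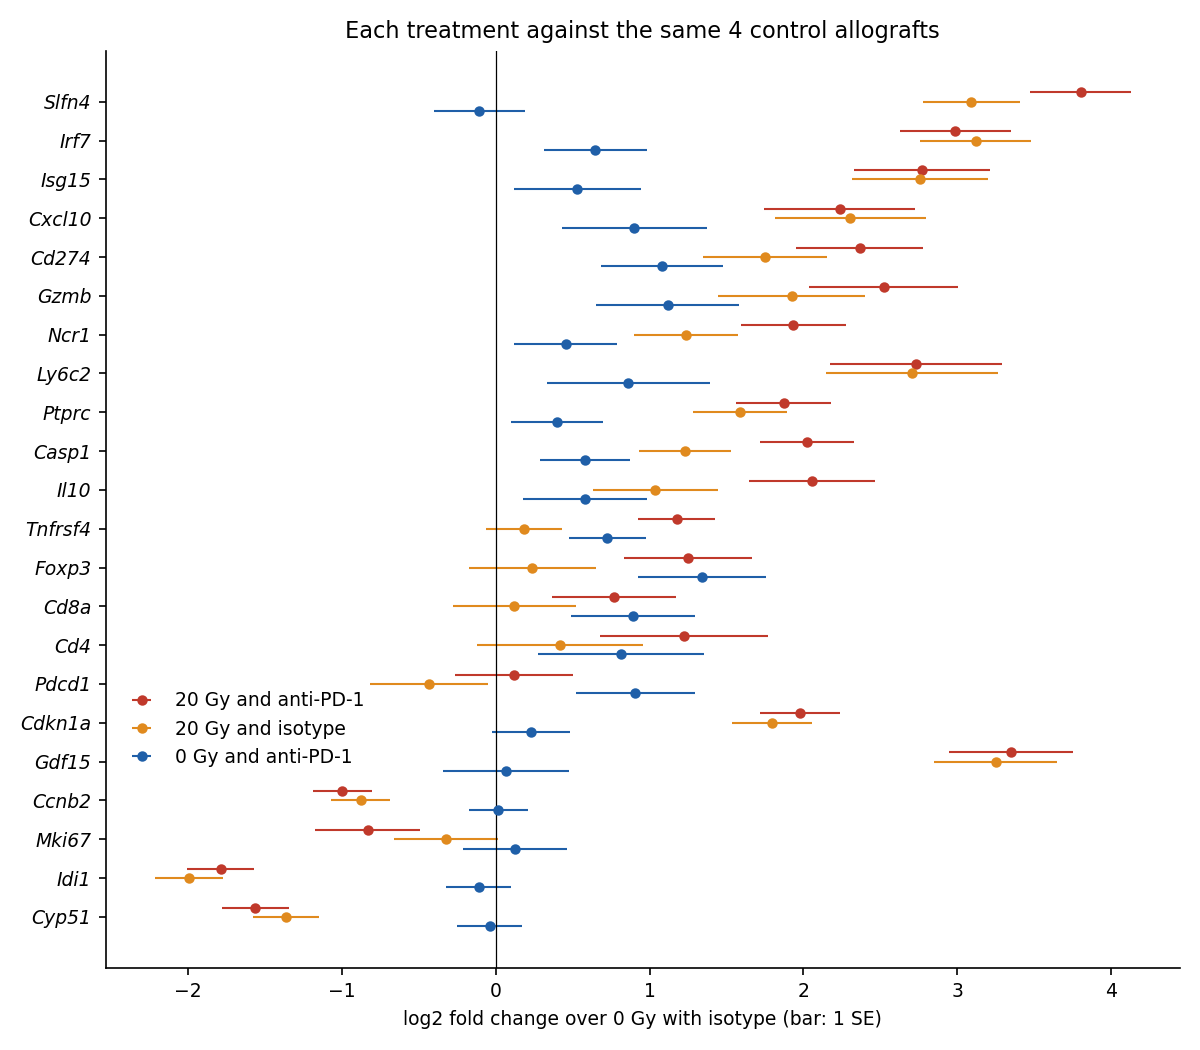
Points are log2 fold changes of 22 genes over the same 4 control allografts, with bars of 1 SE, for the combination (red), 20 Gy with isotype (orange) and anti-PD-1 without radiation (blue). Slfn4, Irf7, Cdkn1a, Gdf15, Idi1 and Cyp51 lie far from 0 in both irradiated groups, while Foxp3, Cd8a and Pdcd1 lie furthest right with anti-PD-1 alone.

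The same pair of treatments was also given to primary sarcomas, with 8 tumours in each group. These were of the p53/MCA type, raised with 300 ug of MCA in mice of 6 to 10 weeks of age. No gene of 19327 tested differed in its response between allografts and primary tumours with edgeR (1239 at an unadjusted p below 0.05, smallest adjusted p 0.250), and DESeq2 called 4, among them Abi1, Nr4a1 and Skint3. Without treated allograft replicate 4, edgeR called 1. Medians in primary tumours were 1.63 for the type I interferon list, 2.24 for the interferon gamma list, -1.07 for cholesterol synthesis and -0.93 for mitosis. The medians of the skeletal muscle and adipocyte lists were 2.82 and 2.08 there, against 0.000555 and 0.15 in allografts, and their part in the other values was not tested. Cd274 was at 2.99 ± 0.40 (SE) there, against 2.36 in allografts, and Cdkn1a at 2.39 ± 0.24 (SE), against 1.98. Other values lay near 0 in primary tumours: Ncr1 was at 0.03 ± 0.46 (SE), against 1.93 in allografts, Net1 at -0.11 ± 0.20 (SE), against -1.10, and Plau at 0.03 ± 0.34 (SE), against 1.34. The median of the cytotoxic list was 0.65 there, against 1.41.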

How the data were processed

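RNA was sequenced from whole tumours, from poly(A)-selected, strand-marked libraries made only where the RNA integrity number was above 7, per the labels' protocols. The authors deposited raw whole-number read counts per Ensembl gene, with 36854 genes and 48 sample columns. Trimmomatic 0.36, STAR, HTSeq and the build mm10 are named in the submitters' processing notes, while the annotation and the strand setting of the counting are not given in the sources used here, so antisense and overlapping genes are uncertain. Symbols and positions came from GENCODE M21 (36796 genes named). The table is that of a first run, and its totals are the depths given. Reads carry no molecular identifiers, and counting error is small beside the spread between tumours except at low CPM.

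The 16 allografts entered 1 edgeR 4.0.16 fit (R 4.3.3, limma 3.58.1) with a coefficient per group, filterByExpr, TMM scaling and the quasi-likelihood F test, with Benjamini-Hochberg adjustment over 17746 genes and calls at an adjusted p below 0.05. SE is the size of the log2 fold change divided by the square root of F. CPM are TMM-scaled. Per-tumour values are in the order of replicates 1 to 4, which were numbered in accession order and pair nothing. Nothing in the labels says how the tumours were batched, and p-values measure the spread between these grafts. No library was a duplicate: counts of pairs of tumours within a group differed with a chi-square per degree of freedom of 100.5 or more. The members, the 40 gene lists (640 genes) and a panel of 54 genes were chosen with earlier results of these data known. Genes named are the panel, the 12 higher and 12 lower called genes with the smallest p and the 5 with the largest fold change in each direction, all reaching a mean of 5 CPM in either group, and up to 3 called genes per list with the smallest p, and others of a list are given as its members. Some genes that these rules name are not reported here. Those described in full were picked from them after their values were seen. Results for all 6 promoter motifs searched are given. The edgeR fit was also run on simulated counts, and that run is not used here as support for any call. Alternatives covered DESeq2 1.42.0, limma-voom, other scaling and filters, covariates (Xist above 10 CPM, first digit of the animal identifier, skeletal muscle level), other sample sets, stricter thresholds and leaving out each tumour.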

Additional observations from a re-analysis of the deposited data

Results flagged for a closer look

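In a group of 4, a tumour was singled out when its gap to the nearest other, over the group's range, exceeded Dixon's 95% critical value, which chance passes in about 1 in 20 groups. Of 264 groups checked, 18 did. Control replicate 3 accounted for 6, as the highest control for Fcrl5 (3.75 CPM), Fpr1 (6.33 CPM), Il10 (0.769 CPM), Fpr2 (14.1 CPM) and C3ar1 (102.8 CPM) and the lowest for Net1 (149.6 CPM). Control replicate 2 was the highest control for Cyp51 (60.8 CPM) and Tnfrsf18 (6.17 CPM). Control replicate 4 was the highest for Msr1 (132.1 CPM).

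Treated replicate 2 was the lowest treated tumour for Gsdmd (100.6 CPM) and the highest for Adgre1 (569 CPM) and the complement factor Cfp (358 CPM). Treated replicate 3 was the highest for Slfn4 (413 CPM), Oas2 (90.6 CPM) and Il1b (259.7 CPM), and treated replicate 4 for Tll1 (20.2 CPM), Foxp3 (6.62 CPM) and Col1a1 (5464 CPM). For Oas2 the other treated tumours lay between 87.5 and 87.9 CPM, so the gap is wide only beside a very narrow group. The cause of these gaps was not tested.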

How the results depend on the processing

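No paired analysis was possible because the labels carry no replicate numbers. The count of 1714 calls became 851 with all 48 sarcomas, 1075 with the 8 tumours alone, 671 at an adjusted p below 0.01, 1083 above 2-fold, 2518 with DESeq2 and 919 to 2320 leaving out 1 tumour. Genes called higher were 797 with all 48 sarcomas and 761 to 1471 leaving out 1 tumour. Genes called lower were 738 with DESeq2, 54 with all 48 sarcomas, 186 without a filter, 120 with the 8 tumours alone and 158 to 931 leaving out 1 tumour. Against anti-PD-1 alone, the share of tested genes called, 3.96%, became 8.38% with DESeq2, 0.595% with all 48 sarcomas, 6.10% at a mean of at least 1 CPM, 1.60% without a filter and 1.02% to 7.05% leaving out 1 tumour. Between tumour kinds the count of 0 became 4 with DESeq2 and 0 to 1 leaving out 1 tumour. The causes were not tested.

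Of the genes named and called, 68 were called in every alternative. The other 39 were lost in at least 1, 32 of them with all 48 sarcomas. Signs turned for 3 genes, none called: Pdcd1 (-0.0864 to 0.504 leaving out 1 tumour), Col1a1 (-1.03 to 0.21) and Ckm (0.28 with Xist as a covariate, 0.79 with limma-voom, -1.15 to 0.33 leaving out 1 tumour). Leaving out 1 tumour also turned the difference in mitochondrial share (-0.325 to 0.418 percentage points), in the Gm42418 share (-1.17 to 0.191) and in genes detected (-4.42 to 610.25). At 4 against 4, changes of genes below 1 CPM are the least certain.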

Other observations

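Mast cell genes were mixed. Mcpt2, a mast cell protease with close paralogs, was at 0.640, 0.990, 1.65 and 2.35 CPM in treated replicates 1 to 4 and at 13.9, 21.995, 11.96 and 12.2 CPM in controls, and it was called lower (-3.41 ± 0.70 (SE), adjusted p = 0.00703). It was at -3.86 with 20 Gy and isotype and at 0.49 with anti-PD-1 alone, against the same controls. Of 10 other mast cell genes, 0 were called with edgeR or with DESeq2, 1 reached an unadjusted p below 0.05 and the median was -0.39 (-0.93 to 0.07 leaving out 1 tumour, so its sign turned), with Tpsab1 and Tpsb2, the tryptases, at -1.42 and -1.15, the protease Cpa3 at -0.59 and the receptor Kit at 0.02. The summed level of these 10 was 41.9, 156, 91.5 and 121.3 CPM in treated tumours and 85.2, 158, 263 and 111.8 CPM in controls, so the groups overlapped.

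Several genes with small p values belong to none of the lists. Zfp9, a zinc finger gene, was at 16.5, 15.1, 15.0 and 13.3 CPM in treated tumours and 31.5, 30.8, 20.4 and 33.4 CPM in controls (-0.95 ± 0.15 (SE), adjusted p = 0.00190). Sclt1, a centriole component, was at 7.42, 6.88, 6.66 and 7.82 CPM against 12.6, 12.4, 10.5 and 12.9 CPM (-0.75 ± 0.13 (SE), adjusted p = 0.00257), and the call was lost with all 48 sarcomas (adjusted p = 0.0958). Amph, which encodes the membrane-bending protein amphiphysin, was at 1.84, 0.377, 1.48 and 2.68 CPM against 8.22, 7.30, 4.02 and 8.28 CPM (-2.13 ± 0.43 (SE), adjusted p = 0.00668). In the other direction, Rnf114, a ubiquitin ligase, was at 196, 145, 178 and 169 CPM against 75.6, 81.6, 91.4 and 72.1 CPM (1.10 ± 0.14 (SE), adjusted p = 0.000588). BC147527, of unstated function, was at 5.78, 4.34, 10.97 and 3.77 CPM against 0.428, 0.451, 0.565 and 0.385 CPM (3.76 ± 0.50 (SE), adjusted p = 0.000828). Both groups were apart in all 5 genes.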
